A study of Mus musculus with 12 samples.

Results

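Medullary thymic epithelial cells (mTEC) sorted from mice with floxed alleles of both Liver X Receptor genes were compared with and without a FoxN1-Cre transgene. The comparison used 6 of the 12 libraries of the series. Libraries 1, 2 and 3 were control mTEC, which carried the LXRalpha flox and LXR beta flox alleles and no Cre. Libraries 4, 5 and 6 were Cre mTEC, which carried the same floxed alleles and FoxN1-Cre. All mice were C57BL6/J and 2 months old, and a group without floxed alleles was not analysed here. The other 6 libraries were cortical thymic epithelial cells (cTEC) of the same genotypes, 3 control (7, 8 and 9) and 3 Cre (10, 11 and 12). They entered the same statistical fit and served as the set against which the medullary effect was tested for a difference. Of 31332 genes in the table of read counts, 17268 had enough counts to be tested, and all of them were examined. Whether libraries of a group stem from separate animals is not stated in the labels, so p-values measure only the spread between these libraries.

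LXR alpha (Nr1h3) and LXR beta (Nr1h2) are nuclear receptors that bind oxysterols, pair with a retinoid X receptor and switch on genes when cell cholesterol is high. Their best known targets move cholesterol out of the cell (Abca1, Abcg1), make and desaturate fatty acids (Srebf1, Fasn, Scd1, Scd2) and limit uptake of lipoproteins by marking lipoprotein receptors for degradation (Mylip). Medullary epithelial cells display proteins of many other tissues to developing T cells, partly under the control of Aire and Fezf2, and some of them mature into cells that resemble keratinised epidermis, tuft cells or other specialised epithelia. FoxN1 is a transcription factor of the whole thymic epithelial lineage, so a Cre driven by it acts in cortex as well as medulla, and cells are exposed to it before they become medullary.

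Total counts were 7388891 to 11159013 in the control mTEC libraries and 6326676 to 7006522 in the Cre mTEC libraries, so the groups did not overlap in depth. The number of genes with at least 1 count was lower in the deeper control libraries (24512 to 25343) than in the Cre libraries (25671 to 26463). Levels are given as CPM, counts scaled to the library total with TMM factors. Across genes, log CPM correlated between libraries of a group at 0.980 to 0.990. Among the 6 libraries the first principal component held 54.9% of the variance and placed the Cre libraries at 29.6, 25.7 and 5.82 and the controls at -27, -22 and -12.1, so Cre library 6 lay nearest to the controls. The labels matched the marker genes: all 11 tested mTEC markers were higher in every control mTEC library than in every control cTEC library, among them Aire (means 862 against 10.2 CPM), and 7 of 8 cTEC markers were higher in control cTEC, Foxn1 being the exception.

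Of the floxed receptor genes, Nr1h2 was lower by a small amount and Nr1h3 was not called. Nr1h2 stood at 109, 125 and 131 CPM in the floxed controls, against 95.7, 70.8 and 70.2 CPM with Cre, with no overlap (log2 fold change -0.63, SE 0.13, edgeR adjusted p = 0.0158), and the gene no longer passed with library 2, 3 or 5 removed (adjusted p as high as 0.131). Nr1h3 was at 5.83, 6.11 and 6.90 CPM in the floxed controls, against 7.88, 9.15 and 5.83 CPM with Cre, and the groups overlapped (edgeR adjusted p = 0.670). Counts were per gene and were not split by exon, so they may include exons that the floxed alleles leave in place, which was not tested. They give no measure of how many cells lost the receptors. Foxn1 itself was at 291, 231 and 239 CPM in the floxed controls, against 155, 33.9 and 57.5 CPM with Cre, all Cre libraries below all controls (log2 fold change -1.63, SE 0.36, edgeR adjusted p = 0.0216). For Foxn1, the gene no longer passed with library 1, 3 or 5 removed (adjusted p as high as 0.0997), with DESeq2 and with the robust fit, and without library 4 the log2 fold change was -2.51. In cTEC Foxn1 was lower as well (log2 fold change -1.53, edgeR adjusted p = 0.00851), and the difference of -0.097 did not pass (edgeR adjusted p = 0.953). All Cre libraries and no control carried the transgene, so its effects and those of receptor loss cannot be told apart. The partner receptor genes Rxra and Rxrb did not pass (log2 fold changes -0.067 and 0.16, edgeR adjusted p = 0.885 and 0.642).

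In Cre mTEC, 358 of 17268 genes passed (2.07%, edgeR's quasi-likelihood test with Benjamini-Hochberg adjustment at 0.05), 101 of them higher (0.585%) and 257 lower (1.49%). The median log2 fold change over all genes was 0.0081. At least 2-fold changes among them numbered 119 (0.689%), 42 higher (0.243%) and 77 lower (0.446%). Single libraries weighed heavily on these counts. Without library 1, 2, 3, 4 or 5 the number of genes called was 78, 180, 104, 160 and 81, and without Cre library 6 it was 671. After all libraries were thinned to 4804697 counts it was 294, with 93 higher and 201 lower. Of the 358 genes, 59 passed whichever of the 6 mTEC libraries was removed, 48 lower and 11 higher. Those 59 include the sterol efflux transporters, Scd1 and Scd2, several genes of keratinised epithelium and the ligand gene Pdcd1lg2. For most other called genes described below, the libraries without which the call was lost are given. In such sorted bulk populations, less RNA per cell and fewer cells of a type cannot be told apart.

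Among genes called, the 3 largest decreases were those of Scd2, Abcg1 and Abca1, genes of fatty acid desaturation and sterol efflux. Abcg1, a transporter that passes cholesterol to lipoprotein particles, stood at 155, 157 and 150.0 CPM in the control libraries and 22.4, 26.1 and 29.8 CPM in the Cre libraries (log2 fold change -2.55, SE 0.14, edgeR adjusted p = 1.12e-09). Abca1, which loads cholesterol onto apolipoprotein A-I, stood at 141, 132 and 118 CPM in the floxed controls, against 29.7, 33.4 and 43 CPM with Cre (log2 fold change -1.88, SE 0.15, edgeR adjusted p = 1.24e-06). For both transporters every Cre library lay far below every control, and among the Cre libraries number 6 was the highest. Scd2, a stearoyl-CoA desaturase that puts the double bond into saturated fatty acids, was at 585, 531 and 592 CPM in the floxed controls, against 59.5, 65.7 and 81 CPM with Cre (log2 fold change -3.05, edgeR adjusted p = 1.12e-09). Its relative Scd1 was at 157, 149 and 186 CPM in the floxed controls, against 46, 49.5 and 56.4 CPM with Cre (log2 fold change -1.69, edgeR adjusted p = 2.25e-06). These 4 genes passed in every alternative run, with adjusted p of at most 6.47e-05 when a library was left out.

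Of 22 known LXR target genes tested, 6 fell, none rose and 16 did not pass, where 1.49% of all genes fell. The list median log2 fold change was -0.49 against 0.0081 over all genes. Members of this and the other lists were chosen with earlier results of these data known, so their shares and medians are descriptions only. In 14 of the 22 every Cre library was below every control library and in 1 above, where 12.9% and 11.5% of all genes showed such separation. Beside the 4 genes above, Mid1ip1 and Mylip fell. Mid1ip1, which encodes a small protein that promotes the polymerisation of acetyl-CoA carboxylase, went from 16.9, 18.5 and 21.4 CPM to 7.57, 8.85 and 11.4 CPM (log2 fold change -1.02, SE 0.17, edgeR adjusted p = 0.00499). Mylip, the ubiquitin ligase that targets lipoprotein receptors, was at 135, 135 and 125 CPM in the floxed controls, against 95.6, 105 and 88.9 CPM with Cre (edgeR adjusted p = 0.0313), and its call did not survive the removal of any 1 of the 6 libraries. Srebf1, the regulator of fatty acid synthesis, was at 132, 120.5 and 146 CPM in the floxed controls, against 77.5, 88.2 and 75.8 CPM with Cre, without overlap, but did not pass (log2 fold change -0.72, SE 0.19, edgeR adjusted p = 0.0600). Apoe and Lpcat3, a lipoprotein component and a phospholipid acyltransferase, had log2 fold changes of -0.12 and -0.21 and did not pass (edgeR adjusted p = 0.778 and 0.380). Without library 1, 2, 3, 4 or 5 the number of LXR targets called lower was 5. The list did not move in 1 direction only, as 4 log2 fold changes were above 0, the largest 0.74. In some alternatives 1 LXR target was called higher. These were DESeq2, voom, no filter, the fit to the 6 mTEC libraries and the fit without library 6.

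**Figure D1:**
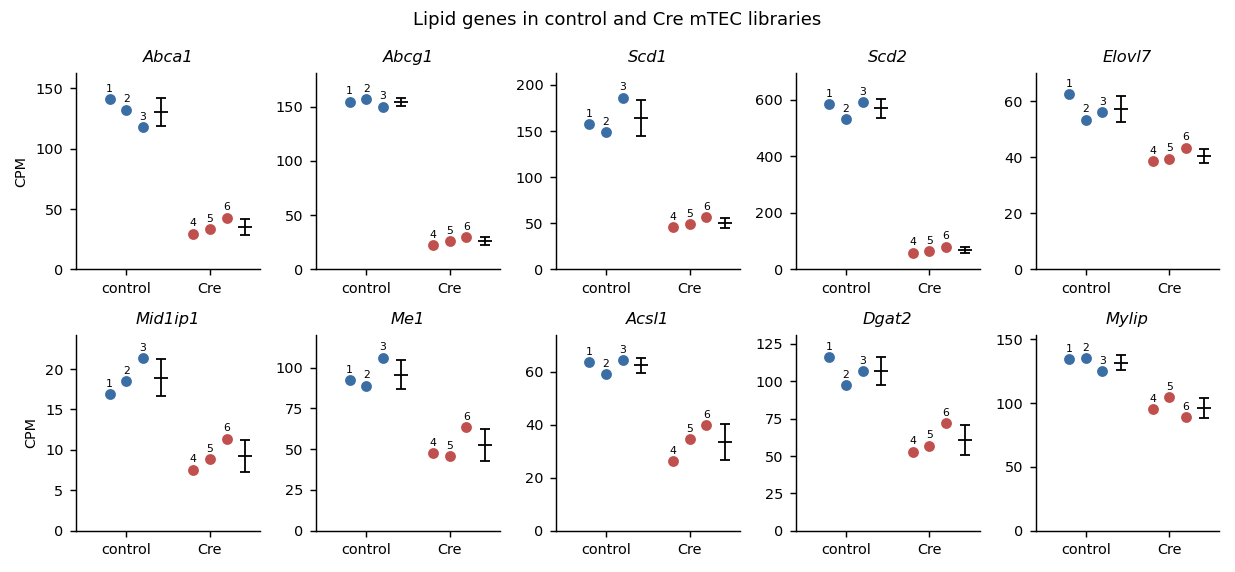
Levels in CPM (y axis, from 0) of 10 lipid genes in the 3 control and 3 Cre mTEC libraries; numbers beside points are library numbers, and the bar to the right of each group is the mean with its SD (n = 3). In every panel the 3 Cre libraries lie below the 3 control libraries, and in 9 of the 10, all but Mylip, library 6 is the highest of the Cre libraries.

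The upstream sequences of Abca1 and of Acsl3, an acyl-CoA synthetase gene that also fell, share a run of letters. The 250 bases before the transcription start are shown for both, together with those of Fasn, the fatty acid synthase gene and the only other tested gene with a window that holds the same letters. They are from RefSeq (build GRCm38.p6), read 5′ to 3′ along the gene's strand, in lower case with the shared run in capitals. The Abca1 window is chr4:53159896-53160145 on the minus strand, the Acsl3 window chr1:78657575-78657824 on the plus strand and the Fasn window chr11:120824548-120824797 on the minus strand.
Abca1: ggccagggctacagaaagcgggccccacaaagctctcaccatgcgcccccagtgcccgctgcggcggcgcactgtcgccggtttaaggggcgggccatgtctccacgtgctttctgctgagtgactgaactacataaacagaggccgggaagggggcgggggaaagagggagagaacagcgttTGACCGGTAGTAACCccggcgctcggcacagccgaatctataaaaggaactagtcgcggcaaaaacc
Acsl3: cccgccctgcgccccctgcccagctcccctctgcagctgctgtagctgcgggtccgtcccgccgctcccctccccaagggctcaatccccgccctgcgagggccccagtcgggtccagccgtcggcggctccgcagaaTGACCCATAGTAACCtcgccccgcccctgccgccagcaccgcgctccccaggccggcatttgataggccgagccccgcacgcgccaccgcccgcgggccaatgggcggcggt
Fasn: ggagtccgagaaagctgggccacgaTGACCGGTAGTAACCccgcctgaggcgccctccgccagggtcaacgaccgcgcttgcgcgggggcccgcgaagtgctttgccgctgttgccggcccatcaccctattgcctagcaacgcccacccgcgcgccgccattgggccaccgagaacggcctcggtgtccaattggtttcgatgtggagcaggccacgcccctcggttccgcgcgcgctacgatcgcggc
The capitals spell GGTTACTANNGGTCA on the opposite strand (N, any base), at positions -67 to -53 before the start of Abca1, -112 to -98 before that of Acsl3 and -225 to -211 before that of Fasn. They are the 15 bases most alike between the Abca1 and Acsl3 windows, with 2 differing, and that search was chosen after both windows had been seen. Windows of 300 bases, from 250 before to 50 after the start, were at hand for 11830 tested genes, and both strands were searched. The run was found, with no mismatch, in 3 of them (0.0254%). Abca1 and Acsl3, which fell, match by construction, because the run was taken from their windows. Fasn is the only match besides them, and it did not pass. Fasn was at 117, 95.1 and 107 CPM in the floxed controls, against 66.5, 79.9 and 85.1 CPM with Cre, without overlap (log2 fold change -0.46, SE 0.16, edgeR adjusted p = 0.166). The repeat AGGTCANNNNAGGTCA, the general form of the site that LXR and its retinoid partner bind, was searched with up to 2 mismatches. It was found in 2.79% of all windows, in 1.61% of the 186 windows of genes that fell (Acsl3, Il23r and Krt78, a keratin gene) and in 5.26% of the 57 windows of genes that rose. It was found in 0 of the 15 windows of LXR target genes. The list has 22 tested genes, and the rest, among them Abcg1, Scd1 and Scd2, had no window to search. At this limit the runs in capitals in the Abca1 and Fasn windows do not match the repeat, and that in the Acsl3 window overlaps a match. A wider limit was not run, so a window without a match here may still hold such a site. For Krt78, the gene no longer passed with library 1, 3, 4 or 5 removed (adjusted p as high as 0.136). The sterol regulatory element TCACNCCAC, the site of the SREBP factors, was found in 1.55% of all windows and in 1.61% of those of genes that fell. A match is a description of the letters and not a measured binding site.

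Among 24 genes of fatty acid synthesis, desaturation and elongation, 7 fell and none rose, where 1.49% of all genes fell. Of the 7, Scd1, Scd2 and Mid1ip1 were also among the 6 LXR targets that fell, so the lists overlap. The list median was -0.48, and in 17 of the 24 every Cre library was below every control, against 12.9% of all genes. Me1, the malic enzyme that supplies NADPH for lipid synthesis, was at 92.2, 88.9 and 106 CPM in the floxed controls, against 47.7, 45.7 and 63.7 CPM with Cre (log2 fold change -0.87, SE 0.15, edgeR adjusted p = 0.00467). Fads2, a desaturase of polyunsaturated fatty acids, fell from 28.1, 28.6 and 31 CPM to 13, 15.7 and 18.8 CPM (log2 fold change -0.87, edgeR adjusted p = 0.0281). Elovl7, an elongase, and Acacb, an acetyl-CoA carboxylase, fell by 0.50 and 0.58 on the log2 scale (edgeR adjusted p = 0.0242 and 0.0471). All groups were separate for these 4 genes, but only Me1 passed in each fit without 1 library. For Fads2, the gene no longer passed with library 1, 2, 3, 4 or 5 removed (adjusted p as high as 0.133). For Elovl7, the gene no longer passed with library 1, 3, 4 or 5 removed (adjusted p as high as 0.154) and after thinning. For Acacb, the gene no longer passed with library 1, 2, 3, 4 or 5 removed (adjusted p as high as 0.258), with the stricter filter and after thinning. Without library 1, 3, 4 or 5 the list held 4 genes called lower, and without library 2 it held 5.

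Enzymes that activate fatty acids and build glycerolipids were lower in part. Of 27 such genes tested, 5 fell and none rose, where 1.49% of all genes fell, and the list median was -0.07. Acsl1, a long-chain acyl-CoA synthetase, was at 63.8, 59.2 and 64.6 CPM in the floxed controls, against 26.2, 34.5 and 39.8 CPM with Cre (log2 fold change -0.90, SE 0.15, edgeR adjusted p = 0.00473). Dgat2, which makes triglyceride, was at 116, 97.2 and 107 CPM in the floxed controls, against 53, 57 and 72.2 CPM with Cre (log2 fold change -0.81, SE 0.13, edgeR adjusted p = 0.00441). Both passed in each fit without 1 library. Acsl3 was at 165, 139.7 and 149 CPM in the floxed controls, against 99.2, 97.3 and 104 CPM with Cre (log2 fold change -0.59, edgeR adjusted p = 0.0120), and the gene no longer passed with library 1, 3 or 5 removed (adjusted p as high as 0.0866). Acsl4, which prefers arachidonic acid, fell by 0.49 on the log2 scale (edgeR adjusted p = 0.0124), and the gene no longer passed with library 1, 3 or 5 removed (adjusted p as high as 0.109). Lpin3, a phosphatidate phosphatase gene, fell by 0.51 (edgeR adjusted p = 0.0416), and the gene no longer passed with library 1, 2, 3, 4 or 5 removed (adjusted p as high as 0.247) and after thinning. Without library 1, 3 or 5 the number of these genes called lower was 2, and without library 2 or 4 it was 4. Of 25 genes of lipid droplets and fatty acid oxidation, Mgll, the monoglyceride lipase gene, alone passed (log2 fold change -0.61, edgeR adjusted p = 0.0158), and the gene no longer passed with library 1 or 5 removed (adjusted p as high as 0.111). Vldlr, a lipoprotein receptor gene, was the only one of 18 sterol storage, transfer and oxysterol genes that passed. It was higher, at 21.2, 18.5 and 19.1 CPM in the floxed controls, against 29.4, 29.8 and 25.8 CPM with Cre (edgeR adjusted p = 0.0294), and the gene no longer passed with library 1, 2, 3, 4 or 5 removed (adjusted p as high as 0.186) and without a filter.

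Of 24 genes of cholesterol synthesis and uptake, 1 fell and none rose. All 24 log2 fold changes were below 0, with a median of -0.39. In 16 of the 24 every Cre library was below every control, against 12.9% of all genes. Sc4mol, which encodes a late enzyme of the pathway, was at 22.7, 24.4 and 29.6 CPM in the floxed controls, against 15.9, 16 and 16.3 CPM with Cre, and did not pass (edgeR adjusted p = 0.0592). Hsd17b7, another late enzyme, was at 13.4, 12.2 and 14.3 CPM in the floxed controls, against 7.12, 7.95 and 6.78 CPM with Cre, and did not pass (edgeR adjusted p = 0.0618). Srebf2, the regulator of the pathway, was at 247, 216 and 232 CPM in the floxed controls, against 175, 177 and 175 CPM with Cre (edgeR adjusted p = 0.105). With DESeq2 4 of the 24 genes were called lower, and in the fit to the 6 mTEC libraries alone 6 were.

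**Figure D2:**
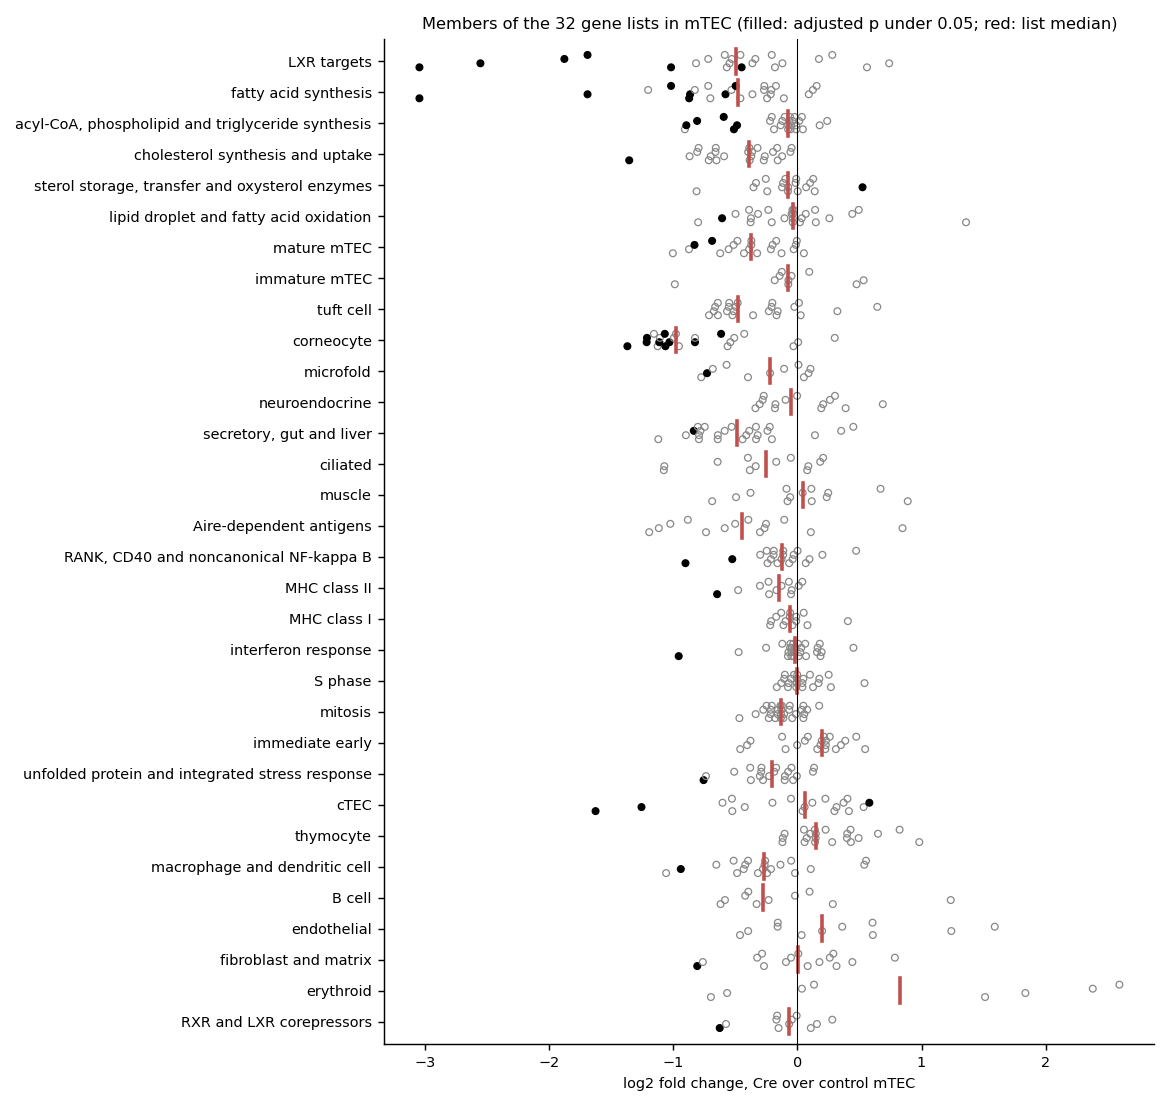
Log2 fold changes in mTEC (x axis, Cre over control) of the tested members of the 32 gene lists (rows); filled points passed at adjusted p under 0.05, open points did not, and the red bar is the list's median. The corneocyte row has the lowest median, -0.98, and 9 filled points, and the points farthest to the left are the LXR targets Scd2, Abcg1, Abca1 and Scd1.

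Genes of keratinised epithelium formed the list with the lowest median, -0.98 on the log2 scale, and the largest share called. As the lists were chosen with earlier results of these data known, this rank is a description only. Of 23 genes, 9 fell (39.1%) and none rose, where 1.49% of all genes fell. In 20 of the 23 every Cre library was below every control, against 12.9% of all genes. Krt10, the keratin of epidermal cells that have left the basal layer, was at 59, 57.8 and 76.3 CPM in the floxed controls, against 33.3, 20.5 and 29.1 CPM with Cre (log2 fold change -1.21, SE 0.15, edgeR adjusted p = 3.50e-04). Krtdap, a secreted protein of differentiating keratinocytes, was at 67, 71.5 and 78.8 CPM in the floxed controls, against 43.8, 29.4 and 30.6 CPM with Cre (log2 fold change -1.06, edgeR adjusted p = 0.00123). Krt77, another suprabasal keratin, was at 35.8, 27.9 and 43.9 CPM in the floxed controls, against 15.8, 12.4 and 17.9 CPM with Cre (edgeR adjusted p = 0.00338). These 3 passed in each fit without 1 library. Lor, which encodes the main protein of the cornified envelope, was at 19.5, 13.2 and 16.9 CPM in the floxed controls, against 7.42, 7.65 and 7.86 CPM with Cre (edgeR adjusted p = 0.00885), and the gene no longer passed with library 1, 3 or 5 removed (adjusted p as high as 0.0979). Spink5, a protease inhibitor of the skin barrier, had a log2 fold change of -1.37 (edgeR adjusted p = 0.0132), and the gene no longer passed with library 1, 3, 4 or 5 removed (adjusted p as high as 0.0962), with DESeq2 and with the robust fit. Krt1, the partner of Krt10, Krt16, Dmkn and the transcription factor gene Grhl1 fell by 1.07, 0.83, 1.03 and 0.62 on the log2 scale (edgeR adjusted p from 0.0289 to 0.046), and each lost its call without library 1, 3 or 5 and without at least 1 other library. The number called lower was 3 without library 1, 3 or 5, 6 without library 2, 5 without library 4 and 11 without library 6.

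**Figure D3:**
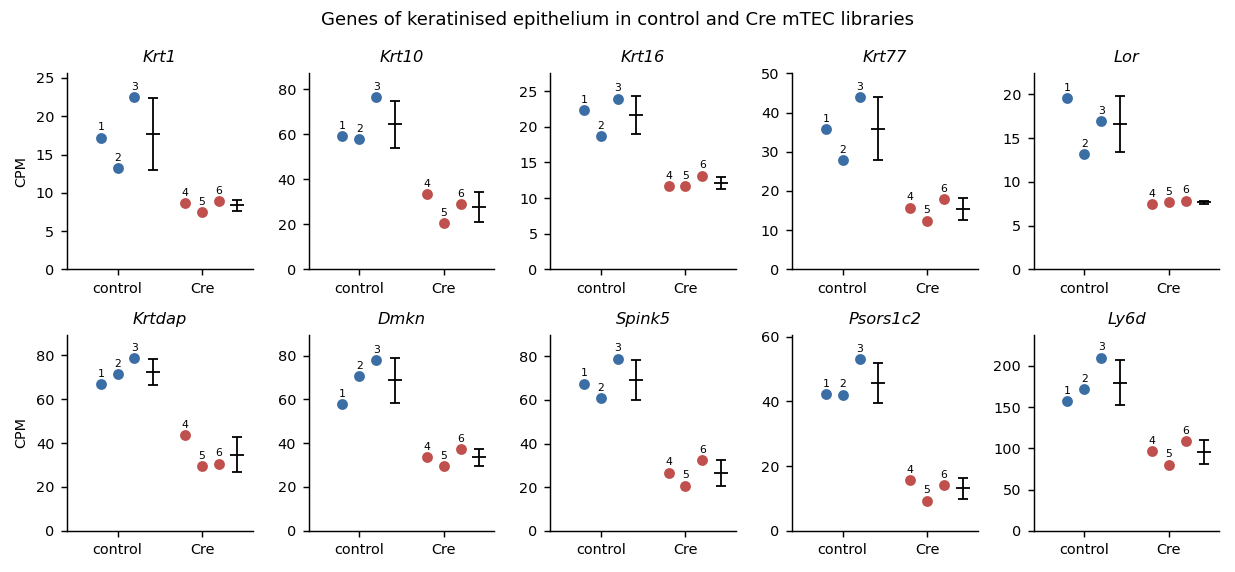
Levels in CPM (y axis, from 0) of 10 genes of keratinised or stratified epithelium in the control and Cre mTEC libraries, with library numbers beside the points and the mean with its SD (n = 3) to the right. No Cre library reaches the lowest control library in any of the 10 panels.

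Several further genes of stratified epithelium were among the largest or most firmly called decreases. Psors1c2, a gene of the psoriasis susceptibility region expressed in cornified skin, was at 42.2, 42.1 and 53 CPM in the floxed controls, against 15.8, 9.30 and 14.2 CPM with Cre (log2 fold change -1.80, SE 0.19, edgeR adjusted p = 3.17e-05). Ly6d, a surface protein of stratified epithelia, was at 157, 172 and 209.9 CPM in the floxed controls, against 97.1, 80.2 and 109 CPM with Cre (edgeR adjusted p = 0.00167). The same direction held for Serpinb5 (maspin), Sox21, a transcription factor gene, and the keratins Krt23 and Krt84, with log2 fold changes of -0.75, -0.88, -1.23 and -1.36 (edgeR adjusted p = 0.00141, 0.00167, 0.00473 and 0.00862). All of these passed in each fit without 1 library. Keratins of basal cells did not pass. Krt5 was at 3729, 3441 and 3355 CPM in the floxed controls, against 3729.9, 3115 and 2670.3 CPM with Cre, and Krt14 at 1601, 1669 and 1494 CPM in the floxed controls, against 1588, 1532 and 1242 CPM with Cre, with overlapping groups (edgeR adjusted p = 0.712 and 0.720). The pan-epithelial gene Epcam had a log2 fold change of -0.064 (edgeR adjusted p = 0.880). Krt15, another basal keratin, was at 55.6, 47.7 and 52.6 CPM in the floxed controls, against 28.2, 22.5 and 27.8 CPM with Cre and did not pass (log2 fold change -0.99, edgeR adjusted p = 0.0923). The groups did not overlap for Krt15, and it passed with voom, without a filter and in the fit to the 6 mTEC libraries. None of 10 immature mTEC genes tested passed. With voom, and in the fit to the 6 mTEC libraries, 2 of them were called higher and 1 lower. Without a filter 1 was called higher and 1 lower, and without library 6 1 was called higher and 0 lower.

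Several ligand and receptor genes of the immune system were lower in Cre mTEC. Pdcd1lg2, which encodes PD-L2, a ligand of the inhibitory receptor PD-1, was at 45.4, 39.5 and 39.9 CPM in the floxed controls, against 18, 17.2 and 20.5 CPM with Cre (log2 fold change -1.16, SE 0.13, edgeR adjusted p = 8.93e-05). Cd274, which encodes the other PD-1 ligand PD-L1, was at 194, 186 and 177 CPM in the floxed controls, against 96.9, 109 and 108 CPM with Cre (log2 fold change -0.82, edgeR adjusted p = 0.0186), and the gene no longer passed with library 1, 2, 3, 4 or 5 removed (adjusted p as high as 0.0936). For both ligands the groups were well apart, and the 3 Cre libraries lay close together. Il23r, a receptor subunit for interleukin 23, was at 43.3, 43.4 and 52.2 CPM in the floxed controls, against 23.5, 22.5 and 23.7 CPM with Cre (edgeR adjusted p = 0.00141). Among chemokines, Ccl11 (eotaxin) was at 582, 537 and 496 CPM in the floxed controls, against 309, 199 and 201 CPM with Cre (log2 fold change -1.19, SE 0.20, edgeR adjusted p = 0.00473), and Ccl8 at 13.6, 17.9 and 17.3 CPM in the floxed controls, against 6.82, 5.85 and 5.01 CPM with Cre (log2 fold change -1.46, edgeR adjusted p = 0.00680). Both passed in each fit without 1 library. Ccl25, which draws progenitors to the thymus, was at 153, 168 and 187 CPM in the floxed controls, against 89.1, 50.8 and 72.4 CPM with Cre (log2 fold change -1.26, edgeR adjusted p = 0.00862), and the gene no longer passed with library 5 removed (adjusted p as high as 0.0788) and with the robust fit. Ccl22, a chemokine of mature mTEC, fell from 73, 58.8 and 50.7 CPM to 40.7, 35.5 and 37.1 CPM (edgeR adjusted p = 0.0148), and the gene no longer passed with library 1 or 5 removed (adjusted p as high as 0.125). The cytokine gene Il7, a growth factor of thymocytes, went the other way, from 402, 379 and 336 CPM in the floxed controls to 553, 642 and 474 CPM with Cre (log2 fold change 0.58, edgeR adjusted p = 0.0416), and the gene no longer passed with library 1, 2, 3, 4 or 5 removed (adjusted p as high as 0.305).

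Other decreases of large size or small p had diverse known functions. Chi3l4, a chitinase-like lectin, was at 54.9, 48 and 51.3 CPM in the floxed controls, against 18.8, 15.7 and 14.6 CPM with Cre (edgeR adjusted p = 5.86e-06). Its near-identical copy Chi3l3 was at 24.3, 27.7 and 25.5 CPM in the floxed controls, against 13.5, 9.60 and 7.18 CPM with Cre (edgeR adjusted p = 0.00441), and reads may be split between the copies. Tac1, the precursor of substance P, was at 14.4, 17.1 and 15.2 CPM in the floxed controls, against 6.06, 5.85 and 4.88 CPM with Cre (log2 fold change -1.48, edgeR adjusted p = 0.00141). Prokr2, a prokineticin receptor gene, and Tmem45a, a transmembrane protein gene expressed in keratinocytes, fell by 1.02 and 1.61 on the log2 scale (edgeR adjusted p = 0.00167 and 0.00167). Those 5 genes passed in each fit without 1 library. Crip3, a LIM-domain gene of the thymus, was at 128, 134 and 149 CPM in the floxed controls, against 61.2, 46.3 and 48.2 CPM with Cre (edgeR adjusted p = 0.00330), also in each such fit. Less firmly called were Oxtr, the oxytocin receptor gene (-1.64, edgeR adjusted p = 0.00467), Fgf14, a fibroblast growth factor homologue (-1.51, edgeR adjusted p = 0.0158), and Ifitm1 (-1.47, edgeR adjusted p = 0.00911). For Oxtr, the gene no longer passed with library 1 removed (adjusted p as high as 0.0501). For Fgf14, the gene no longer passed with library 1, 3 or 5 removed (adjusted p as high as 0.110) and with the robust fit. For Ifitm1, the gene no longer passed with library 2, 3 or 5 removed (adjusted p as high as 0.0811). Klk1b11, a kallikrein gene with close copies, and Itih4, a plasma protein gene, fell by 1.46 and 1.45 on the log2 scale (edgeR adjusted p = 0.0158 and 0.0158), and lost their calls without library 1, 3 or 5 and, respectively, library 2 or 4.

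Of 21 mature mTEC genes, 2 fell, Ccl22 and Pigr, where 1.49% of all genes fell. Of the 21 log2 fold changes, 20 were below 0, with a median of -0.37. Pigr, the transporter of polymeric immunoglobulin, was at 58.4, 55.8 and 73.1 CPM in the floxed controls, against 32.1, 30.7 and 42 CPM with Cre (log2 fold change -0.83, edgeR adjusted p = 0.00794), and the gene no longer passed with library 3 or 5 removed (adjusted p as high as 0.0716). Aire was at 793, 860.0 and 932 CPM in the floxed controls, against 487, 564 and 864 CPM with Cre, where Cre library 6 lay within the control range (edgeR adjusted p = 0.322). Fezf2 was at 498, 501 and 565 CPM in the floxed controls, against 477, 406 and 476 CPM with Cre (edgeR adjusted p = 0.554). The costimulatory gene Cd80 was at 46.8, 46.5 and 55.7 CPM in the floxed controls, against 28, 26.1 and 42.1 CPM with Cre, without overlap, and did not pass (log2 fold change -0.62, edgeR adjusted p = 0.133). Ubd, a ubiquitin-like modifier abundant in mTEC, was at 894, 1050.4 and 1061 CPM in the floxed controls, against 738, 582 and 826 CPM with Cre (edgeR adjusted p = 0.0603).

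None of 14 antigens that depend on Aire passed, and their median was -0.45; Pcp4 and Ins2, genes of Purkinje cells and of insulin-producing cells, had the smallest p among them, with log2 fold changes of -1.02 and -1.19 (edgeR adjusted p = 0.0574 and 0.105). Of 23 tuft cell genes none passed (median -0.48). Avil, which encodes an actin-binding protein of tuft cells, was at 102, 112 and 125 CPM in the floxed controls, against 52.3, 55.6 and 105 CPM with Cre (edgeR adjusted p = 0.0702), and Plcb2, a phospholipase of taste signalling, at 35.4, 32.8 and 46.2 CPM in the floxed controls, against 19.1, 18.9 and 33.2 CPM with Cre (edgeR adjusted p = 0.0764). For both genes library 6 was within the control range and libraries 4 and 5 were below it. Of 24 genes of secretory, gut and liver type, Bpifa1, an airway secretory protein, fell (log2 fold change -0.83, edgeR adjusted p = 0.0267), and the gene no longer passed with library 1, 2, 3, 4 or 5 removed (adjusted p as high as 0.182) and with the robust fit. Of 11 microfold cell genes Pglyrp1, a peptidoglycan recognition protein, fell (-0.73, edgeR adjusted p = 0.0231), and the gene no longer passed with library 1, 2, 3, 4 or 5 removed (adjusted p as high as 0.169). Of 12 ciliated, 13 muscle and 14 neuroendocrine genes none passed; Foxj1, the regulator of ciliated cells, had -0.64 (edgeR adjusted p = 0.0867) and Myog, a regulator of muscle, 0.89 (edgeR adjusted p = 0.0815). Without library 6 the numbers called lower were 7 for mature mTEC, 9 for tuft cell, 8 for secretory, gut and liver, 4 for microfold and 3 for Aire-dependent genes, and without library 5 they were 0 for all of these lists. With voom they were 11, 10, 10, 5 and 6 in the same order, without a filter 6, 7, 7, 4 and 4, and in the fit to the 6 mTEC libraries 8, 0, 6, 3 and 2, and with DESeq2 3, 3, 2, 1 and 1. Of the 257 genes that fell, library 6 was the Cre library nearest to the controls in 177.

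In the lists of signalling and general cell programmes between 0 and 10% of genes passed, against 2.07% of all genes. Of 20 genes of the RANK, CD40 and noncanonical NF-kappa B pathways, which drive mTEC maturation, Rel and Traf1 fell. Rel, an NF-kappa B subunit, was at 27, 20.5 and 22.4 CPM in the floxed controls, against 9.84, 14.2 and 13.3 CPM with Cre (edgeR adjusted p = 0.00993), and the gene no longer passed with library 1 removed (adjusted p as high as 0.0808). Traf1, a receptor adaptor, fell by 0.53 on the log2 scale (edgeR adjusted p = 0.0350), and the gene no longer passed with library 1, 2, 3, 4 or 5 removed (adjusted p as high as 0.196) and after thinning. Of 12 MHC class II genes H2-Ob, an inhibitor of peptide loading, fell by 0.65 (edgeR adjusted p = 0.0172), and the gene no longer passed with library 1, 2, 3, 4 or 5 removed (adjusted p as high as 0.144). None of 14 MHC class I genes passed. Of 27 interferon response genes Oas2 fell by 0.96 (edgeR adjusted p = 0.0186), and the gene no longer passed with library 1, 4 or 5 removed (adjusted p as high as 0.134). No gene of 22 for S phase, 28 for mitosis or 21 immediate early genes passed. Of 20 genes of the unfolded protein and integrated stress response, Trib3, a pseudokinase, fell by 0.76 (edgeR adjusted p = 0.0416), and the gene no longer passed with library 1, 2, 3, 4 or 5 removed (adjusted p as high as 0.254) and after thinning. The list medians lay between -0.21 and 0.20. Every Cre library was below every control in 10 of the 20 stress response genes and 6 of the 12 MHC class II genes. In both lists 0 genes were separated the other way. Of all genes, 12.9% were separated lower and 11.5% higher.

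Of the 101 genes that were higher in Cre mTEC, Stmn2, a regulator of microtubules known from neurons, stood at 16.5, 18.8 and 19.5 CPM in the floxed controls, against 54.8, 84.4 and 43.4 CPM with Cre (log2 fold change 1.74, SE 0.21, edgeR adjusted p = 2.63e-04). Clrn1, a membrane protein gene of sensory hair cells, stood at 12.6, 12.1 and 12.1 CPM in the floxed controls, against 28.3, 29.2 and 24.1 CPM with Cre (log2 fold change 1.15, edgeR adjusted p = 0.00142). Every Cre library was above every control for both of these. Pla2g7, the phospholipase that degrades platelet-activating factor, was at 10.04, 7.64 and 9.25 CPM in the floxed controls, against 15.6, 21.7 and 20.2 CPM with Cre (log2 fold change 1.09, edgeR adjusted p = 0.00330), and Lphn3, an adhesion receptor gene, at 9.68, 7.20 and 8.73 CPM in the floxed controls, against 18.3, 19.3 and 18.3 CPM with Cre (log2 fold change 1.12, edgeR adjusted p = 0.00430). Islr, a leucine-rich repeat protein gene, rose by 0.70 (edgeR adjusted p = 0.00510). All 5 passed in each fit without 1 library.

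Frem1, a basement membrane protein, was at 2.96, 1.64 and 2.47 CPM in the floxed controls, against 8.03, 9.30 and 6.10 CPM with Cre (log2 fold change 1.71, edgeR adjusted p = 0.00441), and Mfap2, a microfibril protein, at 4.57, 3.27 and 3.13 CPM in the floxed controls, against 9.39, 14.8 and 8.54 CPM with Cre (log2 fold change 1.56, edgeR adjusted p = 0.00473). Both passed in each fit without 1 library. Fbn2, fibrillin 2, was at 6.81, 6.11 and 6.64 CPM in the floxed controls, against 16.7, 12.4 and 15.7 CPM with Cre (edgeR adjusted p = 0.0101), and the gene no longer passed with library 1, 2, 3 or 4 removed (adjusted p as high as 0.0759). Adamts20, a matrix metalloprotease gene, rose by 1.16 (edgeR adjusted p = 0.0349), and the gene no longer passed with library 1, 2, 3, 4, 5 or 6 removed (adjusted p as high as 0.165), with the stricter filter and after thinning. Lgi2, a secreted leucine-rich protein gene, was at 14.8, 16.4 and 13.8 CPM in the floxed controls, against 30.6, 41.8 and 25.8 CPM with Cre (edgeR adjusted p = 0.00690), and the gene no longer passed with library 1 or 5 removed (adjusted p as high as 0.0747). A further 14 genes that rose had log2 fold changes between 0.56 (Ptprd, a receptor phosphatase) and 1.19 (Fbxl22). Their calls were lost without library 1 for Fbxl22, 1 or 3 for Armcx6, 1 or 5 for Rcn3, and 3 or 5 for Klhl13. They were lost without library 1, 3 or 5 for Wasf1, Slc22a17 and Lrp3, 1, 3 or 4 for Gjc1, and 2, 3 or 5 for Ptprd. They were lost without library 1, 3, 4 or 5 for Serpini1, 1, 2, 3 or 5 for St6gal1, 1, 2, 3, 4 or 5 for Astn1 and Mkx, and any of the 6 for Ppp1r1a. Fbxl22, Astn1, Ppp1r1a and Lrp3 also did not pass after thinning, Astn1 and Ppp1r1a with the stricter filter, and Astn1 with DESeq2 size factors.

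**Figure D4:**
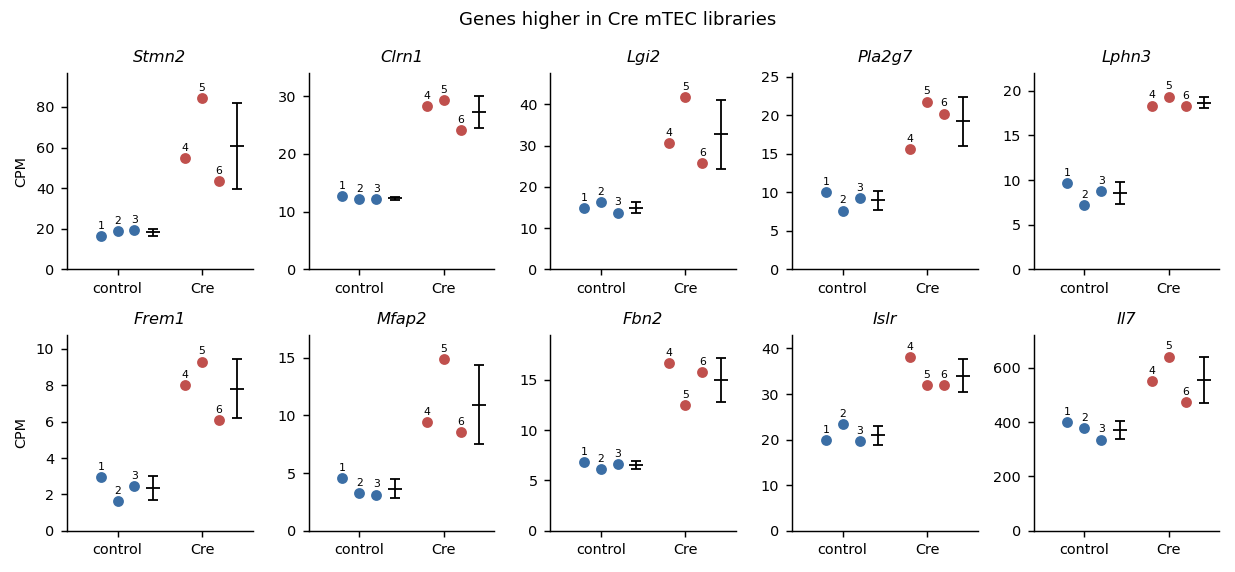
Levels in CPM (y axis, from 0) of 10 genes that were higher in Cre mTEC, in the 3 control and 3 Cre libraries, with library numbers beside the points and the mean with its SD (n = 3) to the right. In every panel the lowest Cre library lies above the highest control library.

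A set of 9 unnamed gene models also passed as higher, and their reads cannot be assigned with certainty. Gm10715, Gm10717, Gm10719, Gm10720, Gm10722, Gm10800, Gm10801, Gm11168 and Gm17535 share from 36.2% to 94.4% of the 31-base stretches of their GENCODE transcripts with other members of the set. The most abundant, Gm10800, was at 1027, 1791 and 3887 CPM in controls, 5246, 6553 and 5208 CPM in Cre and 11059.6, 12580.5 and 12528 CPM in control cTEC (log2 fold change in mTEC 1.34, edgeR adjusted p = 0.0239). Summed over the set, the level was 1715 CPM in control library 1, 2854 in library 2 and 6090 in library 3, against 8246, 10766 and 8092 in the Cre libraries. Within the controls this order was the reverse of the order of depth. All 9 calls remained after the libraries were thinned to equal depth. Thinning keeps, on average, the share of each gene in its library, and other properties that may go with depth were not tested. The log2 fold changes lay between 1.32 and 1.97, 8 of the 9 calls were lost with the robust fit, and without library 3 the values rose to between 1.91 and 2.81. Without library 1, 2 or 5 the calls of 6 of the 9 were lost.

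Other cell types can be carried along by a sort. In their lists, from thymocyte to erythroid, between 0 and 6.67% of genes passed, against 2.07% of all genes. None of 21 thymocyte, 10 B cell, 11 endothelial or 8 erythroid genes passed. Of 20 macrophage and dendritic cell genes Mrc1, a mannose receptor, fell (-0.94, edgeR adjusted p = 0.00730), and the gene no longer passed with library 1 or 5 removed (adjusted p as high as 0.0701). Of 15 fibroblast and matrix genes Col1a1 fell (-0.81, edgeR adjusted p = 0.0381), and the gene no longer passed with library 1, 2, 3, 4 or 5 removed (adjusted p as high as 0.193) and with the stricter filter. In the macrophage and dendritic list 17 of 20 log2 fold changes were below 0 (median -0.27). Every Cre library was below every control in 8 of the 20 and above in 0, where 12.9% and 11.5% of all genes showed such separation. The summed level of the macrophage and dendritic list was 594, 656 and 715 CPM in the floxed controls, against 465, 466 and 665 CPM with Cre, with library 6 inside the control range. That of the thymocyte list was 346, 331 and 399 CPM in the floxed controls, against 439, 364 and 339.8 CPM with Cre. That of the fibroblast list was 3272, 2925 and 2656 CPM in the floxed controls, against 2989, 3133 and 2429.9 CPM with Cre. Library 4 stood out for blood transcripts: its summed B cell level was 359 CPM against 112 to 235 CPM in the other mTEC libraries, and its erythroid level was 127 CPM against 24.3 to 50.7 CPM. The median log2 fold change of the erythroid list was 0.82 with library 4 and -0.68 without it, and it was -0.08 with voom. Of 19 cTEC genes Il7 rose and Foxn1 and Ccl25 fell. The thymoproteasome gene Psmb11, which defines cTEC, was at 18.9, 17.7 and 15.8 CPM in control mTEC, 19.99, 35.5 and 12.7 CPM in Cre mTEC and 253, 434 and 370.4 CPM in control cTEC (edgeR adjusted p = 0.701 in mTEC). The part of these cells in the gene differences above was not tested.

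The medullary effect was compared with the cortical one by the test of the difference, in which 692 of 17268 genes passed (4.01%), 187 with a more positive effect in mTEC (1.08%) and 505 with a more negative one (2.92%). In Cre cTEC 1555 genes were called (9.01%), 971 higher (5.62%) and 584 lower (3.38%). Of the 358 genes called in mTEC, 101 were also called in cTEC, which is 28.2% of the mTEC list and 6.50% of the cTEC list, and 83 of them had the same direction. For 91 of the 358 (25.4%) the effect itself differed between the cell types. The lipid genes Abcg1, Mid1ip1, Acsl3 and Scd2 fell in both cell types and less in mTEC. The log2 fold changes of Abcg1 were -2.55 in mTEC and -4.05 in cTEC (difference 1.49, edgeR adjusted p = 0.00150). Those of Mid1ip1 were -1.02 and -2.40 (edgeR adjusted p = 0.00555), those of Acsl3 -0.59 and -1.56 (edgeR adjusted p = 0.00293) and those of Scd2 -3.05 and -4.07 (edgeR adjusted p = 0.00970). For Abca1 the difference of 0.20 did not pass (edgeR adjusted p = 0.746), nor did that of Scd1 (-0.085, edgeR adjusted p = 0.927). Me1 had -0.87 in mTEC and -0.0031 in cTEC (edgeR adjusted p of the difference = 0.0245), a difference not called without library 1, 3, 5, 7 or 10 (adjusted p up to 0.0779).

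Several genes fell in mTEC and were not called lower in cTEC, and their effects differed. Pdcd1lg2 had log2 fold changes of -1.16 and -0.097 (edgeR adjusted p of the difference = 0.00817), Cd274 -0.82 and 0.48 (adjusted p 0.00572) and Ccl11 -1.19 and 0.27 (adjusted p 0.00861). Crip3 was at 128, 134 and 149 CPM in control and 61.2, 46.3 and 48.2 CPM in Cre mTEC, but at 101, 162 and 130.4 CPM in control and 369, 159 and 254 CPM in Cre cTEC, where it rose (difference -2.39, edgeR adjusted p = 6.47e-04). The same opposite pair of calls was found for Ccl25 (-1.26 in mTEC and 0.74 in cTEC), Fgf14 (-1.51 and 0.96), Trib3 (-0.76 and 1.18), Plxnd1, a semaphorin receptor gene (-0.53 and 1.14), Itpr3, a calcium channel gene (-0.69 and 1.003), Tmed8 (-0.75 and 0.70), Basp1 (-0.46 and 0.87) and the lipoxygenase gene Alox12e (-0.53 and 0.80). Without Cre cTEC library 11 the number of genes whose effects differed was 1644. Among genes that rose in mTEC, Adamts19 (0.86 and -0.92), Sgce, a sarcoglycan gene (0.78 and -0.65), Upb1 (0.85 and -0.51) and Vldlr (0.52 and -0.43) were called lower in cTEC. The differences named in this paragraph passed in each of the 12 fits without 1 library, although the mTEC calls of Plxnd1, Itpr3, Tmed8, Basp1, Alox12e, Adamts19, Sgce and Upb1 each were lost without at least 2 single libraries.

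**Figure D5:**
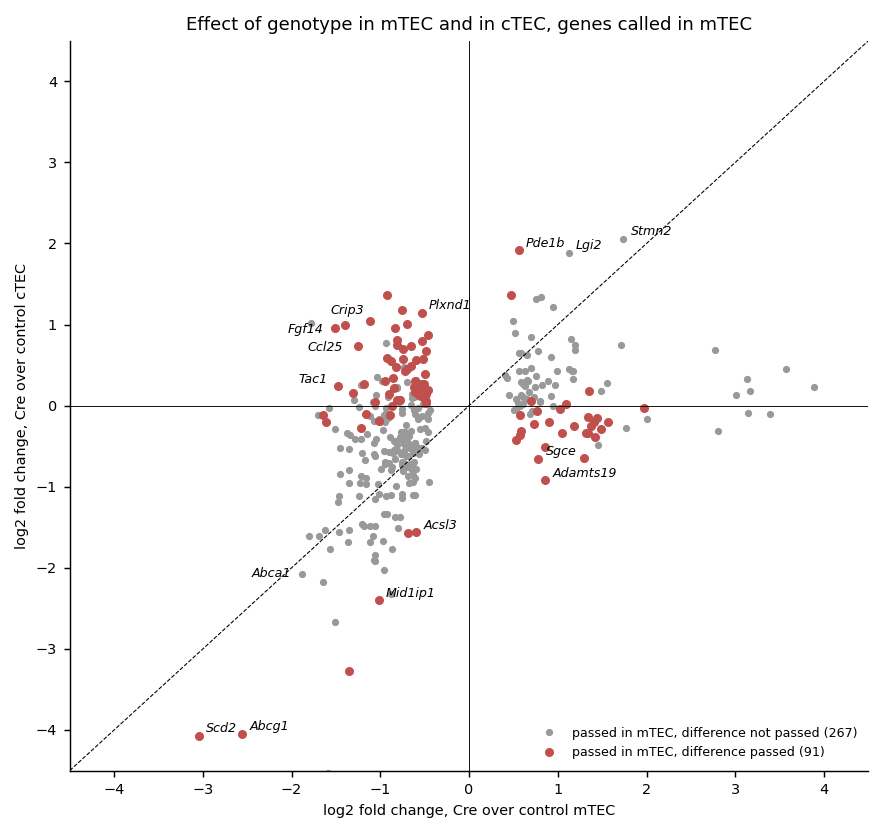
Log2 fold change in mTEC (x axis) against that in cTEC (y axis), Cre over control, for genes called in mTEC; red marks the 91 genes whose effect differed between the cell types, grey the other 267, and the dashed line equal effects. Igkv1-135, Iglv1 and Ripply2 lie outside the axes; Abcg1, Scd2 and Mid1ip1 lie lower left, below the dashed line, and Crip3, Fgf14, Ccl25 and Plxnd1 upper left.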

How the data were processed

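RNA of sorted thymic epithelial cells was counted in 12 libraries. Per the labels' protocols, thymuses were dissociated with Liberase TH and DNase, cells were sorted into lysis buffer, and RNA from a NucleoSpin XS kit went into SMARTer low-input v4 libraries, which do not mark strand, so antisense partners cannot be told apart. The authors deposited raw counts per gene symbol. STAR, HTSeq and edgeR and the build mm9 are named, per the submitters' processing notes. Their versions, the annotation and the treatment of reads with several matches were not given in the sources used here.

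Differences were tested with edgeR 4.0.16 (R 4.3.3), two-sided: TMM, filterByExpr by group, a single quasi-likelihood model of the 4 groups (8 residual degrees of freedom), Benjamini-Hochberg adjustment over 17268 genes, threshold 0.05. Log2 fold changes are Cre over control, and a difference is the mTEC minus the cTEC effect. The scripts were tested on simulated data. CPM use whole-library totals. No mTEC library was a copy of another in its group (chi-square per degree of freedom 3.23 to 6.99 between mTEC replicates). Pairs between groups and pairs of cTEC libraries were not compared in this way.

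There were 32 gene lists, described by counts and medians. Genes named were a set of fixed genes, up to 15 per direction by fold and 10 by p (mean of at least 5 CPM, no overlap, proper name), up to 4 per list and up to 10 per direction whose effects differed. Members, lists and this rule were chosen with earlier results of these data known. Cd274, Ccl11, Krt23, Krt84, Krt78, Chi3l3, Apoe, Lpcat3, Iglv1, Igkv1-135, Ripply2, the 9 Gm models and list members beyond 4 per list were named after their values were seen. Some genes picked by the rule were left out and are not reported here. Ccl21a had at most 2 counts in any mTEC library, and 10 list genes were not matched to the table. Alternatives were DESeq2 size factors, DESeq2 1.42.0, voom of limma 3.58.1 using sample quality weights, a robust fit, no filter, 5 CPM in 3 libraries, the 6 mTEC libraries alone and leaving out each library; thinning was added after seeing the data.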

Additional observations from a re-analysis of the deposited data

Results flagged for a closer look

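No group had enough libraries for a test of single outlying samples. The results below were singled out because the effect of genotype differed between mTEC and cTEC by the test of the difference (edgeR adjusted p under 0.05). Values are log2 differences, the mTEC effect minus the cTEC effect.

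Among lipid genes the difference was 1.49 for Abcg1, 1.03 for Scd2, 1.13 for Srebf1, 1.38 for Mid1ip1, 0.97 for Acsl3, 0.95 for Vldlr and 0.89 for Sc4mol. It was -0.86 for Me1, -0.78 for Acsl1 and -0.52 for Acsl4, which were lower in Cre mTEC and not called in cTEC. Of these 10, Srebf1, Sc4mol, Me1, Acsl1 and Acsl4 lost the call of a difference without 1 or another library (adjusted p up to 0.0693, 0.133, 0.0779, 0.130 and 0.123).

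Among keratin genes it was 1.02 for Krt14, which was called lower in cTEC and not in mTEC, -0.93 for Krt10 and -2.16 for Lor; for Krt10, the difference no longer passed with library 3, 5 or 7 removed (adjusted p as high as 0.0682). Among immune, matrix and regulator genes it was -0.96 for Fezf2, -1.06 for Pdcd1lg2, -1.30 for Cd274, -1.45 for Ccl11, -1.997 for Ccl25, -2.39 for Crip3, -1.05 for Rel, -1.94 for Trib3 and -1.55 for Col1a1; for Rel, the difference no longer passed with library 1, 8, 9 or 10 removed (adjusted p as high as 0.0773) and after thinning.

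Among the other genes lower in mTEC it was -1.53 for Oxtr, -1.41 for Tmem45a, -2.47 for Fgf14, -1.71 for Tac1, -0.83 for Prokr2, -1.68 for Plxnd1, -1.33 for Basp1, -1.70 for Itpr3, -1.44 for Tmed8 and -1.33 for Alox12e. Of these, Oxtr, Tmem45a and Prokr2 lost the call without 1 or another library (adjusted p up to 0.155, 0.112 and 0.105), and Tac1 after thinning. Among genes higher in mTEC it was 1.07 for Pla2g7, 1.06 for Armcx6, 0.65 for Islr, 0.96 for Rcn3, 1.78 for Adamts19, 1.44 for Sgce, 1.36 for Upb1, 1.94 for Ttpa and -1.36 for Pde1b, the last of which rose more in cTEC. Armcx6 and Islr lost the call without 1 or another library (adjusted p up to 0.0913 and 0.131).

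For the gene models that share sequence it was 1.99 (Gm10715), 1.65 (Gm10717), 1.77 (Gm10719), 1.81 (Gm10720), 1.77 (Gm10722), 1.69 (Gm10800), 1.48 (Gm10801), 1.59 (Gm11168) and 1.62 (Gm17535), and all 9 calls were lost with the robust fit. In all, 31 of the 50 differences passed in each of the 12 fits without 1 library.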

How the results depend on the processing

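The count of genes called in mTEC, 358, was 594 with DESeq2, 1672 with voom, 1049 without a filter, 1026 in the fit to the 6 mTEC libraries and between 78 and 671 when 1 library was left out; the cause was not tested. It was 435 with DESeq2 size factors, 399 with the stricter filter, 359 with the robust fit and 294 after thinning. The count of differing effects, 692, was 1121 with DESeq2, 1398 with voom, 1140 without a filter and between 371 and 1644 when 1 library was left out. Fits without a library have fewer samples, and the remaining libraries of the group are assumed to vary like the other groups. Among the named genes recomputed in each setting, Psmb11 and Hbb-b1, neither called, changed sign: between fits without 1 library, Psmb11 ran from -0.11 (without library 5) to 0.66 (without library 6) and Hbb-b1 from -1.31 (without library 4) to 4.00 (without library 3). Of 358 genes called, 57 passed in every setting run and 28 in no fit without 1 library. No paired analysis was possible because each library has a number of its own, 1 to 12, which pairs it with none in another group.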

Other observations

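A pair of immunoglobulin genes passed as higher in Cre mTEC and had their highest level in library 4. Iglv1 was at 23, 3.00 and 1.63 CPM in Cre libraries 4, 5 and 6 and at 0.179, 0.764 and 0.130 CPM in controls, and Igkv1-135 was at 13.2, 0 and 2.17 CPM in Cre libraries and at 0.0896, 0 and 0 CPM in controls. For Iglv1, the gene no longer passed with library 1, 3 or 4 removed (adjusted p as high as 0.113), with the stricter filter and with the robust fit, and without library 4 its log2 fold change was 2.59 against 4.62 with all libraries. For Igkv1-135, the gene no longer passed with library 1, 2, 3 or 4 removed (adjusted p as high as 0.393), with DESeq2, with DESeq2 size factors, with the stricter filter, with voom, in the fit to the 6 mTEC libraries, with the robust fit and after thinning. Hbb-b1, the beta-globin gene, was at 63, 1.95 and 1.08 CPM in the Cre libraries and at 0.627, 2.18 and 8.86 CPM in controls and did not pass. Ripply2, a regulator of segmentation in the embryo, was at 5.02, 6.55 and 7.29 CPM in control mTEC and 1.97, 1.35 and 2.85 CPM in Cre mTEC (edgeR adjusted p = 0.0294); the gene no longer passed with library 1, 2, 3, 4 or 5 removed (adjusted p as high as 0.187) and after thinning. It had at most 0.517 CPM in any cTEC library.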
